A study of Mus musculus with 14 samples.

Results

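The 7 microRNA (miRNA) names described here come from hairpins that are made without Drosha, the nuclear enzyme that cuts most miRNA hairpins out of their transcripts. They are mmu-miR-320-3p, mmu-miR-320-5p, mmu-miR-484, mmu-miR-877-5p, mmu-miR-877-3p, mmu-miR-1224-5p and mmu-miR-702-3p (mmu, for mouse, is left out from here on), chosen by name from the 1695 mature miRNA names of the deposited count table. All 7 were in the table, and 3 of them, miR-320-3p, miR-484 and miR-877-3p, had enough counts to be tested.

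The libraries hold small RNA of the small extracellular vesicles, membrane-bound particles, shed by primary neutrophils. The neutrophils were Ly6G-positive bone marrow cells of wild-type female BALB/c mice, cultured for 48 h with the solvent DMSO (7 libraries) or with 27-hydroxycholesterol (27HC), an oxysterol made from cholesterol, at 10 µM (7 libraries). All cells were therefore in culture for 48 h, and a library holds what the vesicles carried, not what the cells contained. The labels do not say whether libraries of a group came from separate mice or cultures, so that p-values measure only the spread between these libraries, which may be technical.

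Most miRNAs are made by a nuclear and then a cytoplasmic cut: the Microprocessor, which is Drosha with its partner Dgcr8, frees the hairpin in the nucleus, and Dicer trims it to a duplex in the cytoplasm. The hairpin of miR-320 is itself the start of a short capped transcript, so that no Drosha cut is needed, and it leaves the nucleus through Exportin-1 in place of Exportin-5. Its cap hinders loading of the 5p strand, and miR-320-3p is the known product. The hairpin of miR-484 is likewise made without the Microprocessor and needs Dicer. Mirtrons, such as miR-877, miR-1224 and miR-702, are short introns that the spliceosome cuts out and that fold into a hairpin after debranching.

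Sequences of the mature strands show where they lie in their introns, since a mirtron 5p strand can begin with the first bases of an intron and its 3p strand can end near the last. RefSeq (build GRCm38.p6) held a mature sequence for 5 of the 7 members, and they are printed 5′ to 3′ with the seed, bases 2 to 8, in capitals.
miR-484: uCAGGCUCaguccccucccgau
miR-877-5p: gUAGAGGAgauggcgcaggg
miR-877-3p: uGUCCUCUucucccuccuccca
miR-1224-5p: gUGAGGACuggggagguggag
miR-702-3p: uGCCCACCcuuuaccccgcucc
The 2 strands left out of the member names, from the same hairpins, are shown for comparison.
miR-1224-3p: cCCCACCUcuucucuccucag
miR-702-5p: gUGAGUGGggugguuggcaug
None of the 5 members shared its seed with another of the 1431 names that had a RefSeq sequence. The seed of miR-702-5p also occurs in miR-3102-5p. No run of 16 bases of these 7 strands occurred in another of the matched names.

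In 2 of the hairpins the whole intron is the hairpin, from the GU of the 5′ splice site to the AG of the 3′ splice site, both in capitals here.
Mir877: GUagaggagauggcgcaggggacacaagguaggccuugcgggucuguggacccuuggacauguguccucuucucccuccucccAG
Mir1224: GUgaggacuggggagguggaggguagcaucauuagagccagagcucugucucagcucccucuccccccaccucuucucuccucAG
Mir877 is on chromosome 17 at 35960730 to 35960814, minus strand, and equals an intron of 85 bases of Abcf1, a gene for a translation factor. Mir1224 is on chromosome 16 at 20604452 to 20604536, plus strand, and equals an intron of 85 bases of Vwa5b2. miR-877-5p and miR-1224-5p both start at the first base of these introns, miR-877-3p stops 1 base before the end of its intron, and miR-1224-3p ends with it. Mir702, on chromosome 5 at 136991433 to 136991541, plus strand, begins 9 bases before an intron of 102 bases of Plod3, a collagen-modifying enzyme, and ends 2 bases before the end of that intron. miR-702-5p starts at the first base of this intron, and miR-702-3p stops 2 bases before its end.

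The capped hairpins are not in introns of their own strand. Mir484, on chromosome 16 at 14159626 to 14159692, plus strand, overlaps an exon of Marf1 on the opposite strand, and the mature miR-484 starts at base 5 of its 67-base hairpin. Mir320, on chromosome 14 at 70443510 to 70443591, plus strand, overlaps no other gene and lies 62 bases from Polr3d, a subunit gene of RNA polymerase III on the opposite strand. These positions come from the GENCODE M21 and RefSeq annotations of GRCm38, while the submitters' processing notes name GRCm39, and the count table holds no positions.

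The mirtron strands differ in base composition by their side of the hairpin. C and U made up 90.9% of miR-877-3p, 85.7% of miR-1224-3p and 81.8% of miR-702-3p, against 20% of miR-877-5p, 19.05% of miR-1224-5p and 33.3% of miR-702-5p. The median of the 1431 matched names was 50%. The mirtron strands listed by annotation below, these included, had medians of 27.3% for 23 5p names and 75.6% for 20 3p names. The contrast is therefore not particular to the members. miR-484, which comes from the 5′ side of its hairpin and from no intron, had 68.2%.

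Library totals ran from 112914 to 871189 counts, and the limit set by a count of 0, taken as 3 counts, was 3.44 to 26.6 counts per 1000000 counts. As a check of the labelled cell type, the 6 myeloid miRNAs on the list of markers, miR-223-3p among them, summed to between 101065 and 235197 CPM (counts per 1000000, on TMM-scaled library sizes) in DMSO and between 120135 and 158700 CPM in 27HC libraries. Erythroid names summed to between 501.4 and 1118 CPM, the lymphoid name to between 73.2 and 372.8 CPM, endothelial and stromal names to between 967 and 2347 CPM and the liver name to between 1881 and 4552 CPM. Every listed marker had at least 1 count. The filter on low counts passed all 6 myeloid names, the lymphoid name and the liver name. It passed only 1 of 4 erythroid names and 4 of 6 endothelial and stromal names. Of the names that passed, 4 myeloid names and the lymphoid name were called lower with 27HC in the edgeR test described next, and 0 were called higher. Of all 239 tested names, 21 were called lower and 9 higher. The part of other cells in the results was not tested.

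Levels spanned a wide range. The members held 17159 counts in all libraries together, of which 83.04% were miR-484 and 14.6% miR-320-3p. Mean levels over the 14 libraries were 3688 CPM for miR-484, 736 CPM for miR-320-3p, 95.1 CPM for miR-877-3p, 24.3 CPM for miR-1224-5p, 9.62 CPM for miR-702-3p, 3.67 CPM for miR-320-5p and 1.21 CPM for miR-877-5p. miR-484 ranked 31st and miR-320-3p 80th by mean level among the 239 tested names, and miR-877-3p ranked 174th. The lowest miR-484 level in any library, 2427 CPM, was above the highest of miR-320-3p, 1171 CPM. The lowest miR-320-3p level, 323.7 CPM, was above the highest of miR-877-3p, 265.7 CPM. From miR-877-3p downwards, neighbours in this order overlapped between libraries.

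The 7 names took 0.391 ± 0.0781% of all DMSO counts and 0.521 ± 0.0661% of all 27HC counts (SD, n = 7 libraries each). DMSO libraries ran from 0.292% to 0.5500%, the highest being DMSO replicate 7 and the next 0.399%, and 27HC libraries from 0.426% to 0.595%. miR-484 made up most of this share in every library, from 68.1% to 89.3% of the member counts.

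miR-484 rose with 27HC. This miRNA is known to repress Fis1, a factor of mitochondrial fission. In DMSO libraries its level was 2427 CPM at the lowest, 3122 CPM at the median and 3871 CPM at the highest, and in 27HC libraries 3068, 4785 and 5252 CPM. The 4 highest libraries were all of the 27HC group and the 2 lowest of the DMSO group, but the groups overlapped. Groups without overlap in CPM were seen for 0 of the 3 tested members, beside 5.44% of all tested names. The means were 3054 ± 495 CPM and 4321 ± 868 CPM (SD, n = 7). Fitted in edgeR by quasi-likelihood, miR-484 had a log2 fold change of 0.50 (SE 0.14), which is 1.41-fold, at an adjusted p of 0.0216. It was the only one of the 3 tested members that was called at an adjusted p under 0.05. Among all tested names 12.6% were called in either direction and 3.77% were called higher.

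The call for miR-484 rested on single libraries in 2 cases. Without DMSO replicate 6 the log2 fold change was 0.43, with an edgeR adjusted p of 0.0617, and without 27HC replicate 3 it was 0.47, with an edgeR adjusted p of 0.0541. In the other 12 fits that left out a library it was called, and it was also called under RLE and upper-quartile scaling, in DESeq2 and in limma-voom. With no filter on low counts, which tests all 1695 names, it was not called. In that fit its log2 fold change was 0.42 (SE 0.21), at an edgeR unadjusted p of 0.0485 and an adjusted p of 0.434. The edgeR unadjusted p of the main fit was 0.00213.

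Replicates 1 to 4 and replicates 5 to 7 are given apart here, a split known from earlier results of these data. No distance between whole profiles was computed, and the labels do not say what the numbers mark. In replicates 1 to 4, miR-484 ran from 3071 to 3871 CPM in DMSO and from 4785 to 5252 CPM in 27HC libraries, with no overlap. In replicates 5 to 7 it ran from 2427 to 3141 CPM in DMSO and from 3068 to 3700 CPM in 27HC libraries, which overlap by a single library in each group. The log2 fold change was 0.65 (SE 0.099 and adjusted p 0.000896, edgeR) in replicates 1 to 4 and 0.37 (SE 0.14 and adjusted p 0.207, edgeR) in replicates 5 to 7. A test of the difference between these effects, as an interaction term, gave an edgeR unadjusted p of 0.187 and an adjusted p of 0.554.

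miR-320-3p was not called. It is the strand of miR-320 that is loaded, and the transferrin receptor is among its known targets. In DMSO libraries it was at 323.7 CPM at the lowest, 644.6 CPM at the median and 1171 CPM at the highest, and in 27HC libraries at 674, 803.6 and 964 CPM. The 27HC libraries all lay within the range of the DMSO libraries, which was the wider one: 657 ± 308.5 CPM against 815 ± 109 CPM (SD, n = 7). By edgeR the log2 fold change was 0.31 (SE 0.25), at an unadjusted p of 0.227 and an adjusted p of 0.521.

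Within DMSO, miR-320-3p was lower in most libraries of replicates 1 to 4 than in replicates 5 to 7. DMSO replicates 1 to 4 were at 324 to 693 CPM and DMSO replicates 5 to 7 at 645 to 1171 CPM, while 27HC libraries were at 674 to 907 CPM in replicates 1 to 4 and at 804 to 964 CPM in replicates 5 to 7. In replicates 1 to 4 alone its log2 fold change was 0.78 (SE 0.24 and adjusted p 0.0441, edgeR), and 3 of the 4 DMSO libraries lay under all 4 of the 27HC libraries. In replicates 5 to 7 alone it was −0.032 (SE 0.22 and adjusted p 0.966, edgeR). The interaction of treatment and set had an edgeR unadjusted p of 0.0509 and an adjusted p of 0.479, so the effects were not shown to differ. Without DMSO replicate 7, the library with the highest miR-320-3p level, the log2 fold change over the remaining libraries was 0.57, and without DMSO replicate 2, the library with the lowest level, it was 0.18. It was not called in any of the 14 fits that left out a library. In limma-voom the log2 fold change was 0.49 (adjusted p 0.279). With a term for replicates 1 to 4 or 5 to 7 it was 0.39 (SE 0.20 and adjusted p 0.201, edgeR). With the replicate number as a block it was 0.44 (SE 0.21 and adjusted p 0.198, edgeR).

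**Figure D1:**
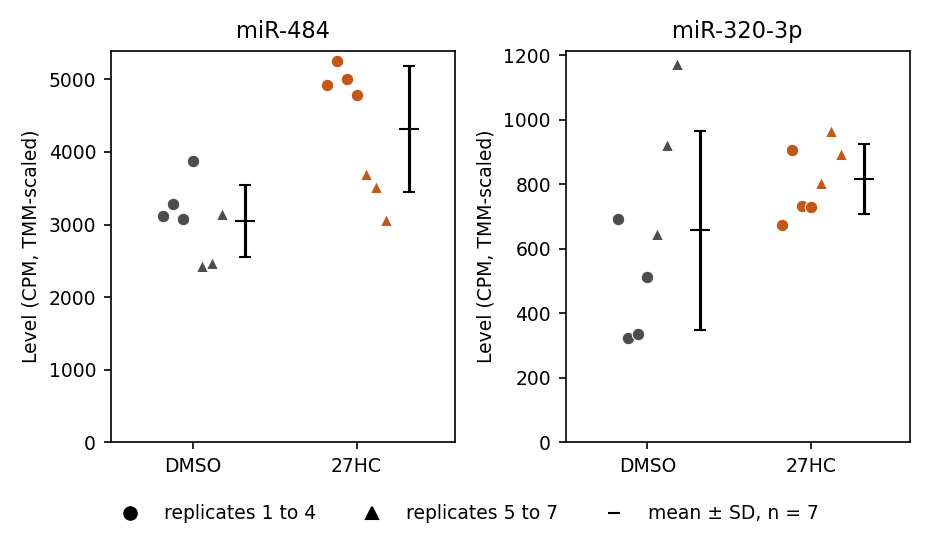
Levels of miR-484 and miR-320-3p (CPM on TMM-scaled library sizes, axes from 0) in the 7 DMSO and 7 27HC libraries, with circles for replicates 1 to 4, triangles for replicates 5 to 7, and bars for the mean ± SD. For miR-484 the 4 circles of 27HC lie above all DMSO libraries, and for miR-320-3p the triangles of DMSO reach 1171 CPM, above every 27HC library.

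The ratio of miR-484 to miR-320-3p within a library does not depend on how libraries are scaled. With 0.5 added to each count, its log2 value in DMSO libraries was 1.42 at the lowest, 2.17 at the median and 3.33 at the highest, and in 27HC libraries 1.77, 2.53 and 2.87. The 27HC libraries fell within the DMSO range. The means were 2.34 ± 0.81 and 2.39 ± 0.44 (SD, n = 7), a difference of 0.049 with an exact two-sided permutation p of 0.893 over 3432 splits (the smallest possible is 0.000583). This was the 1 ratio with enough counts to test, so no adjustment was needed. The difference was −0.18 in replicates 1 to 4 (exact permutation p 0.514, smallest possible 0.0286) and 0.36 in replicates 5 to 7 (exact permutation p 0.3, smallest possible 0.1).

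The ratio also differed by replicate number, in both treatments. In replicates 1 to 4 it ran from 2.17 to 3.33 in DMSO and from 2.53 to 2.87 in 27HC libraries. In replicates 5 to 7 it ran from 1.42 to 1.91 in DMSO and from 1.77 to 2.20 in 27HC libraries. miR-484 was higher on average in replicates 1 to 4 (4164 CPM against 3053 CPM in replicates 5 to 7) and miR-320-3p was lower there (613.5 CPM against 900 CPM). The split was chosen with earlier results of these data known, so these values are a description and were not tested.

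**Figure D2:**
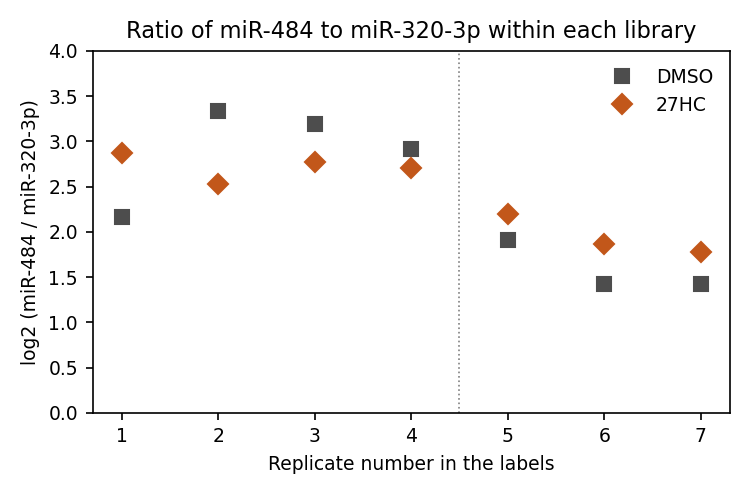
The log2 ratio of miR-484 to miR-320-3p counts in each library by replicate number, with squares for DMSO and diamonds for 27HC, and a dotted line between replicates 4 and 5. Left of the line values run from 2.17 to 3.33 in DMSO and from 2.53 to 2.87 in 27HC, and right of it from 1.42 to 1.91 and from 1.77 to 2.20.

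Names whose pattern over the 14 libraries was most like these 2 members were found by the root mean square difference of log2 CPM after each name was centred on its mean. For miR-484 they were miR-423-3p (0.17), miR-92a-3p (0.20) and let-7d-3p (0.22), where the median over the tested names was 0.55. Of these, miR-92a-3p rose with 27HC as well, by a log2 fold change of 0.71 (edgeR adjusted p 0.00123). For miR-320-3p they were miR-423-5p (0.25), miR-1198-5p (0.25) and miR-1981-5p (0.29), where the median was 0.68, and none of these was called. All names were measured in the same 14 libraries, which differ in depth and by replicate number, and any such likeness includes this. miR-1981-5p is itself a mirtron strand, from an intron of Marc2.

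The other strand of miR-320 was rare beside miR-320-3p. miR-320-5p had 13 counts in all libraries, 9 in DMSO and 4 in 27HC, with at least 1 count in 5 DMSO and 3 27HC libraries and never more than 4 counts. miR-320-3p had 2513 counts and was the higher strand in all 14 libraries. Its share of the counts of both strands ran from 98.8% to 100% per library and was 99.3% over the DMSO and 99.7% over the 27HC libraries. The ratio of the strands was not tested, since miR-320-5p had a median under 5 counts.

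Mirtron members were scarce. miR-877-3p was the most abundant, with 157 DMSO counts and 122 27HC counts in sum. In DMSO libraries it was at 16.6 CPM at the lowest, 56.7 CPM at the median and 216 CPM at the highest, and in 27HC libraries at 35.2, 74.3 and 266 CPM, so that the groups overlapped almost fully. By edgeR the log2 fold change was 0.16 (SE 0.58), at an unadjusted p of 0.788 and an adjusted p of 0.934. The SE was larger than the change seen for miR-484, so a change of that size was not detectable in this fit. The value moved with the fit without being called: it was 0.38 (SE 0.35) with a term for replicates 1 to 4 or 5 to 7, 0.083 with upper-quartile scaling and 0.45 in limma-voom (adjusted p 0.675).

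miR-877-3p also differed by replicate number. It ran from 16.6 to 56.7 CPM in DMSO replicates 1 to 4, from 35.2 to 82.9 CPM in 27HC replicates 1 to 4, from 124.2 to 216 CPM in DMSO replicates 5 to 7 and from 63.6 to 266 CPM in 27HC replicates 5 to 7. Its log2 fold change was 0.86 (SE 0.44 and adjusted p 0.216, edgeR) in replicates 1 to 4 and −0.073 (SE 0.46 and adjusted p 0.964, edgeR) in replicates 5 to 7. The edgeR interaction p was 0.217 (adjusted 0.584). Without 27HC replicate 6, the library with 266 CPM, the log2 fold change over the remaining libraries was −0.25, and without DMSO replicate 7 it was 0.65.

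Only the 3p strand of miR-877 was well represented. miR-877-5p had 3 counts, 1 in each of DMSO replicates 5, 6 and 7, against 279 counts of miR-877-3p, which was the higher strand in all 14 libraries. In the 27HC libraries miR-877-5p had 0 of 1552769 counts, which allows up to 1.93 per 1000000 counts. The DMSO libraries, with 3 of 2373021 counts or 1.26 per 1000000 counts, were below that limit, so no difference was detectable at this depth.

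miR-1224-5p had 45 counts in DMSO and 22 in 27HC libraries, at least 1 in every library, and did not pass the filter on low counts. It was at 3.77 to 79.6 CPM in DMSO libraries (median 8.29) and at 2.35 to 53.1 CPM in 27HC libraries (median 18.4), which overlap over most of their range. Replicates 5 to 7 were high in both treatments: 22.6 to 79.6 CPM in DMSO and 23.9 to 53.1 CPM in 27HC libraries, against at most 8.29 CPM in DMSO replicates 1 to 4 and at most 18.4 CPM in 27HC replicates 1 to 4. These rest on 1 to 5 counts per library in replicates 1 to 4 and 3 to 20 in replicates 5 to 7. In the fit without a filter on low counts its log2 fold change was −0.44 (SE 0.62 and adjusted p 0.781, edgeR).

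Both strands of miR-1224 were present at like levels. miR-1224-3p had 37 counts in DMSO and 17 in 27HC libraries, and miR-1224-5p was the higher strand in 8 libraries, miR-1224-3p in 5, with 1 tie. The 5p strand held 54.9% of the counts of both strands in DMSO and 56.4% in 27HC libraries. In replicates 5 to 7 miR-1224-3p ran from 39.5 to 53.2 CPM in DMSO and from 24.4 to 31.8 CPM in 27HC libraries, against at most 16.7 CPM in the 8 libraries of replicates 1 to 4. The values of replicates 5 to 7 rest on only 5 to 16 counts per library in DMSO and 3 to 4 in 27HC. The log2 fold change of miR-1224-3p without a filter was −0.67 (SE 0.69 and adjusted p 0.666, edgeR).

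miR-702-3p did not share the excess in replicates 5 to 7. It had 13 counts in DMSO and 23 in 27HC libraries, of which 12 were in 27HC replicate 1, and 12 of the 14 libraries had at least 1 count. Its level was at most 13.3 CPM in DMSO libraries (median 7.96) and at most 28.2 CPM in 27HC libraries (median 9.21), and 3 of the 27HC libraries exceeded every DMSO library. These 3 libraries held only 12, 4 and 2 counts of miR-702-3p, and the highest DMSO library held 4. Mean levels were 12.2 CPM in replicates 1 to 4 and 6.15 CPM in replicates 5 to 7. In the fit without a filter its log2 fold change was 0.89 (SE 0.80 and adjusted p 0.623, edgeR). miR-702-5p had 13 counts, 7 in DMSO libraries, all in replicates 5 to 7, and 6 in 27HC libraries.

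**Figure D3:**
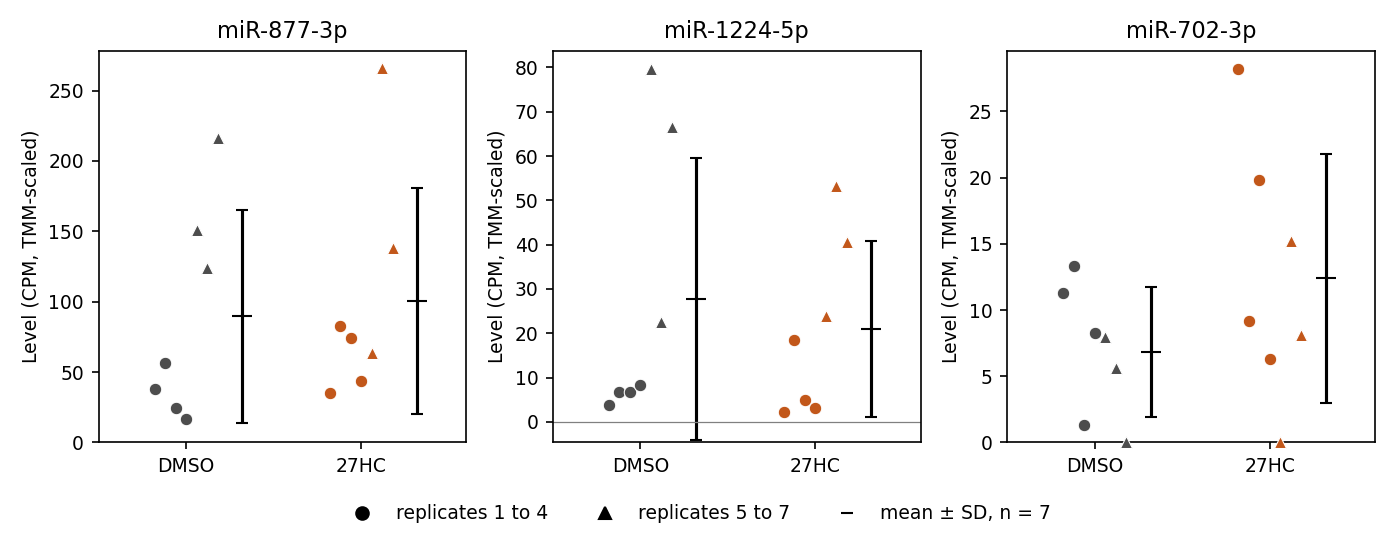
Levels of the mirtron strands miR-877-3p, miR-1224-5p and miR-702-3p (CPM on TMM-scaled library sizes) in the 7 DMSO and 7 27HC libraries, with circles for replicates 1 to 4, triangles for replicates 5 to 7, and bars for the mean ± SD, which pass below 0 where the SD is larger than the mean. For miR-1224-5p all 6 triangles lie above all 8 circles, at 22.6 CPM or more, while for miR-702-3p the highest value, 28.2 CPM, is a circle.

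A list of mirtrons made from annotation alone placed the members among similar hairpins. It took every name whose hairpin lies on the strand of an intron with both ends within 10 bases of the intron's ends, which gave 23 hairpins and 43 names, 4 of them members. Of the 23 hairpins, 16 start with GU, 20 end with AG and 15 do both. All 43 names had at least 1 count, but 3 passed the filter on low counts, and 0 of these were called against 12.6% of all tested names. At an edgeR unadjusted p under 0.05 the number was 0 of 3 as well, beside 53 of all 239 tested names. The median log2 fold change of the 3 was 0.16, beside 0.010 over all tested names.

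The most abundant mirtron strand was miR-1981-5p. It had 451 counts in DMSO and 409 in 27HC libraries, and its level was 126 CPM at the lowest, 211 CPM at the median and 378 CPM at the highest in DMSO and 187, 245 and 379.6 CPM in 27HC libraries. These ranges overlapped, and the log2 fold change was 0.23 (SE 0.25 and adjusted p 0.672, edgeR). miR-7058-3p, from an intron of Lat, a T cell adaptor gene, had 199 counts in DMSO and 113 in 27HC libraries and a log2 fold change of −0.23 (SE 0.61 and adjusted p 0.890, edgeR). It stood at 47.2 CPM on average in replicates 1 to 4 and at 195 CPM in replicates 5 to 7, and miR-877-3p at 46.5 and 159.9 CPM. miR-1981-5p moved less, from 217 to 287.6 CPM.

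Strand use differed between mirtrons. Of 20 mirtron hairpins with both strands in the table, the 3p strand had more counts in 8, the strands were equal in 1, and the 5p strand had more in the rest. Where both strands together had over 20 counts, the 3p strand was the higher one in 6 of 14 mirtron hairpins (42.9%) and in 169 of 328 other strand pairs (51.5%). The 3p strand held 98.9% of the counts of Mir877 and 96.6% of those of Mir7058, but 3.26% of those of Mir1981, the hairpin of the most abundant mirtron strand. These shares are descriptions over all libraries and were not tested.

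**Figure D4:**
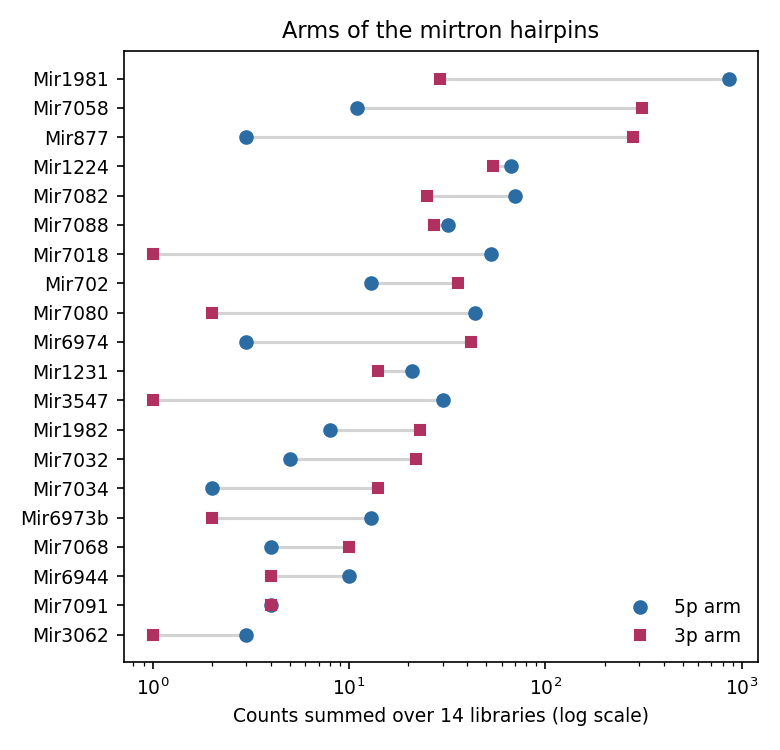
Counts of the 5p strand (circles) and the 3p strand (squares) of 20 mirtron hairpins with both strands in the table, summed over the 14 libraries, on a log axis. Mir877 has 3 counts on the 5p and 279 on the 3p strand, whereas Mir1224 has 67 and 54.

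Summed over the 43 names, mirtron counts were 192 to 1460 per 1000000 counts in DMSO libraries (median 448) and 385.5 to 1291 per 1000000 counts in 27HC libraries (median 624), with wide overlap. All 6 libraries of replicates 5 to 7 had larger sums than all 8 of replicates 1 to 4, 747 to 1460 against 192 to 624 per 1000000 counts. Of the 43 names, 36 (83.7%) had a higher mean level in replicates 5 to 7, beside 1175 of all 1695 names (69.3%). Most names of the whole table thus leaned the same way, and the libraries of replicates 5 to 7 held 112914 to 252014 counts, against 229324 to 871189 in replicates 1 to 4. The part of depth in this was not tested.

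**Figure D5:**
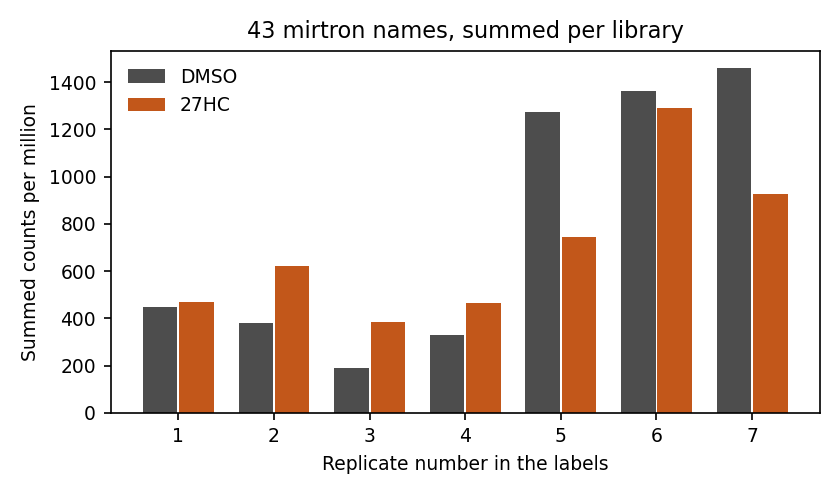
Counts of the 43 mirtron names, summed per library and given per 1000000 counts, by replicate number, with grey bars for DMSO and orange bars for 27HC, from 0. The bars of replicates 5 to 7 start at 747 per 1000000 counts, above every bar of replicates 1 to 4, which reach 624 per 1000000 counts.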

How the data were processed

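The authors deposited whole-number counts per mature miRNA name and library, which were used as deposited. The library kit was QIAseq miRNA, per the labels' protocols. The submitters' processing notes name R 4.1.2, edgeR, limma and the build GRCm39, with no role. The aligner, the counting tool, the rule for reads that match several names and any use of molecular identifiers are not given in the sources used here, so a count may be a read or a molecule, and limits from counts cover counting error only. All 14 rows were matched to a label, and 0 were left over. The 42 pairs of libraries within a group all differed by more than sampling noise (chi-square per degree of freedom at least 5.57).

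27HC was tested against DMSO in all names by quasi-likelihood with edgeR 4.0.16 (R 4.3.3), TMM scaling and filterByExpr (minimum count 10, minimum total 15), which left 239 of 1695 names with 99.4% of the counts. Names were called where the Benjamini-Hochberg adjusted p was under 0.05, which gave 30 calls, 9 higher and 21 lower, with 53 names at an unadjusted p under 0.05. Each SE is the absolute log2 fold change divided by the square root of F. Log2 CPM used a prior count of 2. The ratio of miR-484 to miR-320-3p was tested by an exact permutation test. Ratios with a median under 5 counts were not tested. Both steps were tested on simulated data.

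The members, the lists and the tests were chosen with earlier results of these data known, among them the split of replicates 1 to 4 from 5 to 7. The text names the members, the other strands of their hairpins, the 3 names most like each of the 2 most abundant members, and mirtrons that passed the filter. The strand shares given for Mir7058 and Mir1981 were picked after their values were seen. Alternatives were RLE and upper-quartile scaling, no filter or a mean of at least 100 counts, DESeq2 1.42.0, limma-voom (limma 3.58.1), robust dispersion, the replicate block, a term for the set of replicates, each set alone, each library left out, and 1 in place of 0.5 added in ratios.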

Additional observations from a re-analysis of the deposited data

Results flagged for a closer look

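Of 22 groups of 7 libraries examined, 2 had an end library set apart by a wide gap. The limit used is passed by chance in about 1 of 20 groups of normally distributed values. Several groups hold only a few counts per library, so that rate need not hold here. The group of miR-877-5p in 27HC libraries, all at 0 counts, could not be flagged. The members' share of counts was 0.5500% in DMSO replicate 7, and the next DMSO library had 0.399%. miR-702-5p stood at 23.9 CPM in DMSO replicate 5, from 3 counts, and the next DMSO library had 9.98 CPM.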

How the results depend on the processing

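Over all names the number of calls was 30, and it was 12 in replicates 5 to 7 alone, where 198 names were tested. It ran from 21 to 34 with a library left out. The number of members called was 1. It was 0 with no filter (27 of all 1695 names), 0 in replicates 5 to 7 alone, 2 of 3 in replicates 1 to 4 alone (42 of all 242 names), and 0 to 1 with a library left out. miR-484 was higher with 27HC in every alternative run, from 0.37 to 0.65 on the log2 scale, and was not called in 4 of 25: no filter (0.42), replicates 5 to 7 alone (0.37), without DMSO replicate 6 (0.43) and without 27HC replicate 3 (0.47). The median log2 fold change over all tested names was 0.010, and −0.19 with no filter, where all 1695 names were tested. miR-320-3p was at −0.032 in replicates 5 to 7 alone. miR-877-3p was at −0.073 there, at −0.0024 without DMSO replicate 3, at −0.00073 without DMSO replicate 4 and at −0.25 without 27HC replicate 6, and could not be fitted with a mean of at least 100 counts. The causes were not tested.

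The difference in the ratio of miR-484 to miR-320-3p was −0.18 in replicates 1 to 4 alone. With a library left out it ran from −0.104 to 0.215, and it was below 0 without DMSO replicate 5 (−0.023), 6 (−0.104) or 7 (−0.103) and without 27HC replicate 1 (−0.031), 3 (−0.014) or 4 (−0.0044). With a library left out its exact permutation p ran from 0.527 to 0.988.

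With the replicate number as a block, 37 names were called and miR-484 was at 0.49 (edgeR adjusted p 0.00567), miR-877-3p was at 0.37 (SE 0.35, not called), and the ratio differed by 0.049. Same-numbered libraries deviated together with correlations from 0.069 to 0.60, over 0.1 for 6 of 7 numbers. For 3 of the 7 DMSO libraries the best match was the 27HC library of the same number. The library labels carry the same numbers in both treatments but do not say what they mark. Whether the numbers pair the libraries was not tested, and the main fit did not use them. Depth limits the mirtron members other than miR-877-3p to descriptions.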
